A study of Mus musculus with 6 samples.

Results

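The genes described here are the 10 that store iron in ferritin, release it, export it from the cell or sense it through the iron regulatory proteins (IRPs). They were taken by symbol from a list drawn up by function, namely Fth1, Ftl1, Ncoa4, Slc40a1, Cp, Heph, Aco1, Ireb2, Fbxl5 and Pcbp2, and all 10 were found among the 24422 genes of the count tables. Earlier results of these data were known when the list was chosen. RNA from whole mouse kidney (C57BL/6) was sequenced at postnatal day 60 in 3 control libraries (wild type) and 3 TfR1KO;KspCre libraries (genotype Tfr1f/f;KspCre), and all mice ate an iron sufficient diet of 220 ppm. In the second group exons 3 and 4 of Tfrc, which encodes transferrin receptor 1 (TfR1), are floxed, and Cre is driven by the promoter of Ksp-cadherin, a gene of the distal nephron, so cells outside those segments keep the receptor. The comparison asks how iron handling transcripts of the kidney differ when uptake through TfR1 is removed in part of the nephron.

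Ferritin is a shell of heavy (Fth1) and light (Ftl1) chains that holds iron in a safe form, and Ncoa4 is the cargo receptor that carries ferritin to the lysosome when iron is needed. Ferroportin (Slc40a1) is the known iron exporter of mammalian cells, and the copper oxidases ceruloplasmin (Cp, secreted) and hephaestin (Heph, bound to the membrane) oxidize iron as it leaves. The sensors IRP1 (Aco1) and IRP2 (Ireb2) bind hairpins called iron responsive elements (IREs) when iron is scarce. Binding near the start of an mRNA blocks its translation, whereas binding in the 3′ UTR, as in Tfrc, protects the mRNA from decay. With iron, IRP1 takes up an iron-sulfur cluster and works as the cytosolic aconitase, and IRP2 is degraded through Fbxl5. Pcbp2 is an RNA-binding protein that also delivers iron to ferritin.

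The hairpins are shown because the IRPs act through them. A search of the annotated UTRs (GENCODE M1, build NCBIM37, which is mm9) asked for a C, a stem of 5 bases, the loop CAGTGN and a stem of 5 bases that pairs with the first, with G-T pairs allowed. Reading the transcript strand, it found 1 site in the 5′ UTR of each of 3 members, and each is given here 5′ to 3′ as a window of 30 bases with the loop in capitals.
Fth1: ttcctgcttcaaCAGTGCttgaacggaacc
Ftl1: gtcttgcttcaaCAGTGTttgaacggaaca
Slc40a1: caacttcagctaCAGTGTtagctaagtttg
These lie at chr19:10057222-10057251 (plus strand), chr7:52715148-52715177 (minus strand) and chr1:45982309-45982338 (minus strand). The Fth1 and Ftl1 windows were identical at 26 of 30 bases, and at 16 of the 17 bases of the bulge, stems and loop. Slc40a1 shared 13 of 30 bases with each ferritin chain, so the ferritin hairpins resemble each other and the ferroportin stem differs. The other 7 members had no such match in either UTR. Among all genes the motif was in the 5′ UTR of 33 of 19854 (0.166%) and in the 3′ UTR of 124 of 19915 (0.623%), and Tfrc held 4 of the latter kind. A match describes the letters only. Counts of mRNA do not measure translation, so a block at a 5′ IRE lies outside this measurement.

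Total counts per library ran from 11501053 (knockout 3) to 21001341 (control 1), and all 10 members passed the filter on low counts. Levels are given as counts per 1000000 (CPM) after TMM scaling between libraries, and a gene was called when its adjusted p was under 0.05 by edgeR's quasi-likelihood test over all genes tested. Of 15171 genes tested, 17.2% were called. The group labels rest on the sample titles, as Tfrc gave no check. It had 2783, 2856 and 1032 counts in the controls, against 4368, 1713 and 530 for the knockouts, and a count sums deleted and kept exons over all cells of the kidney. Control 2 held 52 counts of Xist, against at least 10458 in each of the others, so it differed in its sex-linked transcripts from the other 5. Knockout 3 stood apart with 2.59% of its counts on Rn45s, a ribosomal RNA gene, where the others had 0.506% to 0.745%. In whole tissue, fewer cells of a type and less RNA per cell cannot be told apart.

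Of the 10 members, Cp rose and Aco1 and Ncoa4 fell, and the other 7 were not called. That is 1 of 10 called higher, where 10.6% of all tested genes were, and 2 of 10 called lower, where 6.64% of all tested genes were. Libraries of the groups did not overlap for Cp, Aco1, Ncoa4 and Ireb2, which is 4 of 10 members, against 46% of all tested genes. The knockouts lay wholly higher in 1 of 10 members (23.8% of all genes) and wholly lower in 3 of 10 (22.2% of all genes), and 3 of 10 members had an unadjusted p under 0.05 (38.6% of all genes). The shares without overlap and at an unadjusted p lie near those of all genes, and none of these counts is read as a result about the 10 genes as a group. The median log2 fold change of the members was -0.23, and that of all tested genes was 0.02. The calls rested on the full set of libraries. All 3 were lost when any control, knockout 2 or knockout 3 was left out. They were also lost with the Xist-to-Y ratio as a covariate or the replicate number as a block, and all 3 were kept without knockout 1. Those fits that lost them called 0 to 73 genes in all, so calls were lost over nearly all genes, and the log2 fold changes in them were 0.93 to 1.69 for Cp, -1.37 to -1.05 for Aco1 and -0.91 to -0.63 for Ncoa4.

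**Figure D1:**
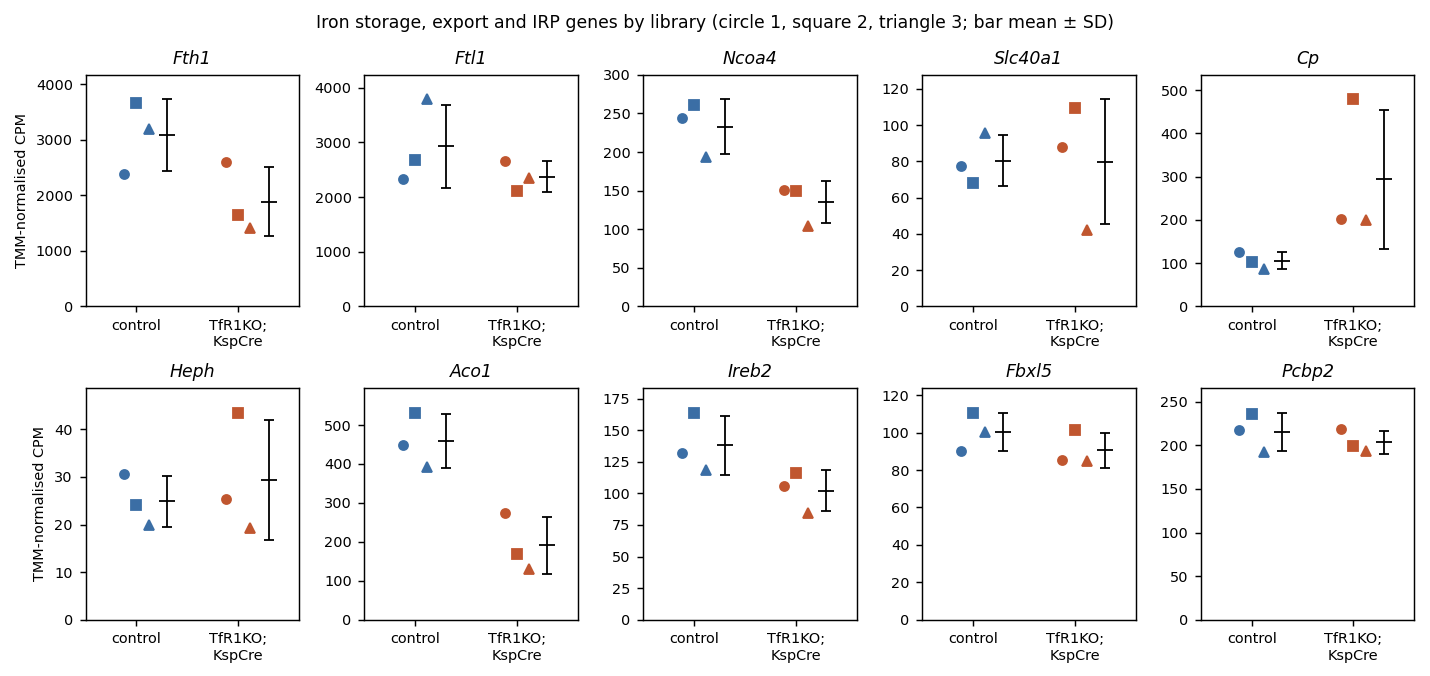
TMM-normalised CPM of the 10 genes (y axes, each from 0) in the 3 control (blue) and 3 TfR1KO;KspCre (orange) libraries, with circles, squares and triangles for libraries 1, 2 and 3 and black bars for the mean ± SD. The knockouts lie wholly above the controls for Cp and wholly below them for Aco1, Ncoa4 and Ireb2, and the groups overlap for the other 6 genes.

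Storage was examined first. Fth1 (ENSMUSG00000024661, chr19:10057193-10059582, plus strand), the chain that oxidizes iron on entry, was at 2391, 3665 and 3199 CPM in controls and at 2596, 1652 and 1410.1 CPM in knockouts. Knockouts 2 and 3 lay below all controls, and knockout 1 lay within their range. The means were 3085 ± 645 and 1886 ± 627 CPM (SD, n = 3 each), and the log2 fold change was -0.71 (SE 0.36), which was not called (edgeR, adjusted p 0.188). Without knockout 1 it was -1.02 and was called (edgeR, adjusted p 0.0294), and with all 6 libraries DESeq2's Wald test also called it (adjusted p 0.04999). Calls over all genes rose too without knockout 1, to 34.4% from 17.2%.

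Ftl1 (ENSMUSG00000050708, chr7:52713314-52715254, minus strand), the chain that helps the iron core form, was at 2322, 2677 and 3788 CPM in controls and at 2667, 2116 and 2341 CPM in knockouts. The groups overlapped, and only knockout 2 was below every control. Its log2 fold change of -0.30 (SE 0.32; 95% interval -1.06 to 0.45) was not called (edgeR, adjusted p 0.513). Both chains ranked high in raw counts, which are not corrected for length. Fth1 held rank 17, 12 and 15 in controls and 11, 14 and 18 in knockouts, while Ftl1 held rank 18, 21 and 9 in controls and 10, 6 and 7 in knockouts. Together they took 0.451% to 0.645% of the counts of a control and 0.422% to 0.548% of those of a knockout.

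The balance of the chains was read as a ratio of raw counts within a library, which no scaling can alter. Ftl1 to Fth1 stood at 0.971, 0.730 and 1.18 in controls and at 1.03, 1.28 and 1.66 in knockouts. Knockouts 2 and 3 were above every control, whereas knockout 1 was within their range. The log2 difference of 0.46 did not pass an exact permutation test (two-sided p = 0.2, where the smallest possible with 3 against 3 is 0.1). It was 0.27 without control 2, 0.28 without knockout 3 and 0.63 without knockout 1.

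Ncoa4 (ENSMUSG00000056234, chr14:32973051-32993041, plus strand), the receptor for ferritin breakdown, was at 244, 261 and 193 CPM in controls and at 151, 150.1 and 104 CPM in knockouts. All 3 knockouts were lower than all 3 controls, with means of 135 ± 26.8 and 233 ± 35.3 CPM (SD, n = 3 each). It fell by 0.78 on the log2 scale (SE 0.21; edgeR, adjusted p 0.0468), that is 1.72-fold. The call was the closest to the threshold of the 3, and it was lost with limma-voom (adjusted p 0.0510), with no filter on low counts (edgeR, adjusted p 0.0520) and with library size alone (edgeR, adjusted p 0.0856). A near-identical copy adds uncertainty. Of the 100-base words of its longest coding transcript, 76.0% also occur on chromosome 12, and the authors kept uniquely mapped reads, so reads that match those words at both places may not have been counted. The ratio of Ncoa4 to Fth1 counts overlapped between groups, at 0.0779 ± 0.0215 in controls and 0.0744 ± 0.0163 in knockouts (SD, n = 3 each; exact permutation test, two-sided p = 0.8).

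In export, Cp rose, whereas Slc40a1 and Heph were not called. Slc40a1 (ENSMUSG00000025993, chr1:45964915-45982439, minus strand), which encodes ferroportin, was at 77.4, 68.2 and 95.8 CPM in controls and at 87.9, 109.5 and 42.4 CPM in knockouts. Knockout 2 was the highest of the 6 libraries and knockout 3 the lowest, so the knockouts straddled the controls. The log2 fold change was -0.01 (SE 0.34; 95% interval -0.80 to 0.79; edgeR, adjusted p 0.989). It became 0.25 with library size alone and 0.29 without knockout 3, hence no direction can be given.

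Cp (ENSMUSG00000003617, chr3:19857054-19909145, plus strand), which encodes ceruloplasmin, was at 126, 103 and 87.3 CPM in controls and at 202, 479 and 200.4 CPM in knockouts. The knockouts were all above the controls, and knockout 2 was far above the other knockouts. Means were 105 ± 19.5 and 294 ± 160.3 CPM (SD, n = 3 each), and Cp rose by 1.48 on the log2 scale (SE 0.38; edgeR, adjusted p 0.0436), that is 2.79-fold. The value was 0.93 without knockout 2 (edgeR, adjusted p 0.0731) and between 1.35 and 1.69 without any of the other libraries.

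Heph (ENSMUSG00000031209, chrX:93650698-93769824, plus strand), which encodes the membrane oxidase hephaestin, was at 30.5, 24.2 and 19.9 CPM in controls and at 25.3, 43.5 and 19.2 CPM in knockouts. Again knockout 2 was the highest library and knockout 3 the lowest. Per 1000 bases of exon it was the lowest member in controls, at 3.24 ± 0.701 CPM (SD, n = 3). Its log2 fold change was 0.24 (SE 0.32; edgeR, adjusted p 0.610), and it was -0.16 without knockout 2.

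Heph to Cp, as a ratio of raw counts, was 0.242, 0.235 and 0.228 in controls and 0.125, 0.0909 and 0.0959 in knockouts. The controls were nearly equal and every knockout was lower, with a log2 difference of -1.19. An exact permutation test gave its smallest possible p (two-sided p = 0.1, and 0.2 after adjustment over the 4 ratios computed), so the design could not bring this below 0.05. The difference kept its sign and ranged from -1.33 to -1.10 when each library was left out in turn.

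The IRPs came next. Aco1 (ENSMUSG00000028405, chr4:40090114-40146042, plus strand), which encodes IRP1 and cytosolic aconitase, was at 449, 532 and 394 CPM in controls and at 274, 169 and 131 CPM in knockouts. All knockouts were below all controls, and knockout 1 was the nearest to them. Means were 458 ± 69.6 and 191 ± 73.9 CPM (SD, n = 3 each). Aco1 fell by 1.26 on the log2 scale (SE 0.30; edgeR, adjusted p 0.0384), that is 2.40-fold, the largest fall among the 10 members. Leaving out 1 library at a time gave values from -1.62 to -1.05.

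Ireb2 (ENSMUSG00000032293, chr9:54711562-54760341, plus strand), which encodes IRP2, was at 132, 164 and 119 CPM in controls and at 106, 116 and 84.7 CPM in knockouts. The groups did not overlap, though knockout 2 came close to control 3. The log2 fold change of -0.43 (SE 0.19; 95% interval -0.88 to 0.01) was not called (edgeR, adjusted p 0.135), and it was -0.16 with library size alone.

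Set against each other within a library, Ireb2 to Aco1 was 0.294, 0.308 and 0.302 in controls and 0.388, 0.687 and 0.647 in knockouts. The controls varied little (0.301 ± 0.00713, SD, n = 3), and every knockout was above them. The log2 difference of 0.89 had an exact permutation p of 0.1 (two-sided, the smallest possible, and 0.2 adjusted over the 4 ratios), and ranged from 0.73 to 1.15 when each library was left out. This ratio and that of Heph to Cp carry no evidence beyond the counts of the called genes in them.

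**Figure D2:**
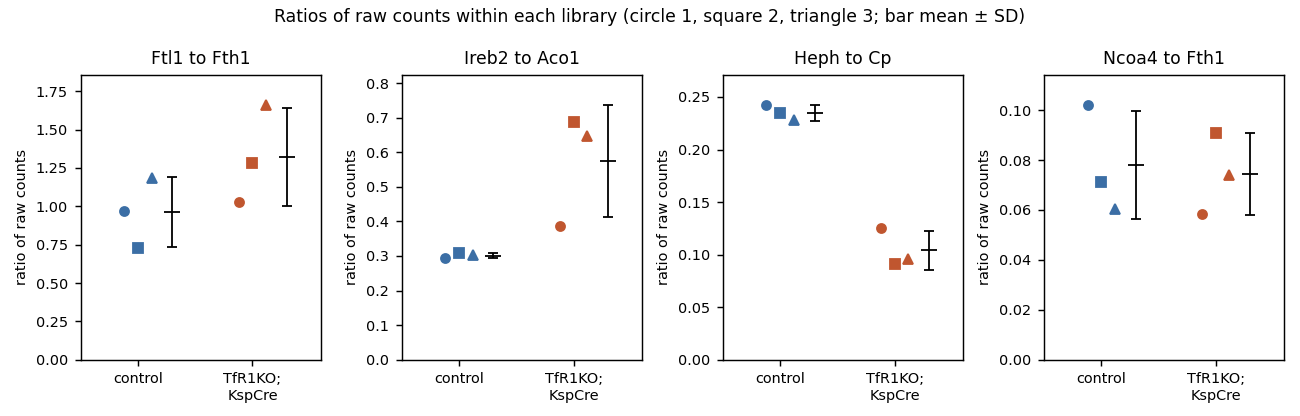
Ratios of raw counts within each library (y axes, each from 0) for 4 pairs of genes, with control libraries in blue, TfR1KO;KspCre libraries in orange, circles, squares and triangles for libraries 1, 2 and 3, and black bars for the mean ± SD. The Ireb2 to Aco1 ratios of the knockouts are all above, and their Heph to Cp ratios all below, those of the controls, which cluster closely, whereas the groups overlap for Ftl1 to Fth1 and Ncoa4 to Fth1.

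Fbxl5 (ENSMUSG00000039753, chr5:44135855-44212878, minus strand), which marks IRP2 for degradation when iron is present, was at 90.4, 111 and 100.2 CPM in controls and at 85.2, 101 and 84.7 CPM in knockouts. Pcbp2 (ENSMUSG00000056851, chr15:102301063-102330490, plus strand), the iron chaperone, was at 217, 236 and 192 CPM in controls and at 219, 199 and 193 CPM in knockouts. These 2 genes were the steadiest of the members, with SDs of 6.54% to 10.5% of the group mean. Their log2 fold changes were -0.15 (95% interval -0.49 to 0.19) and -0.08 (95% interval -0.44 to 0.28), neither called (edgeR, adjusted p 0.469 and 0.723), and both turned positive with library size alone, to 0.13 and 0.19. The median of all genes was itself 0.29 with that scaling. Pcbp2 shares 59.3% of its exon bases with genes on the opposite strand, and the strand setting of the counting was not given in the sources used here, so its value is uncertain.

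**Figure D3:**
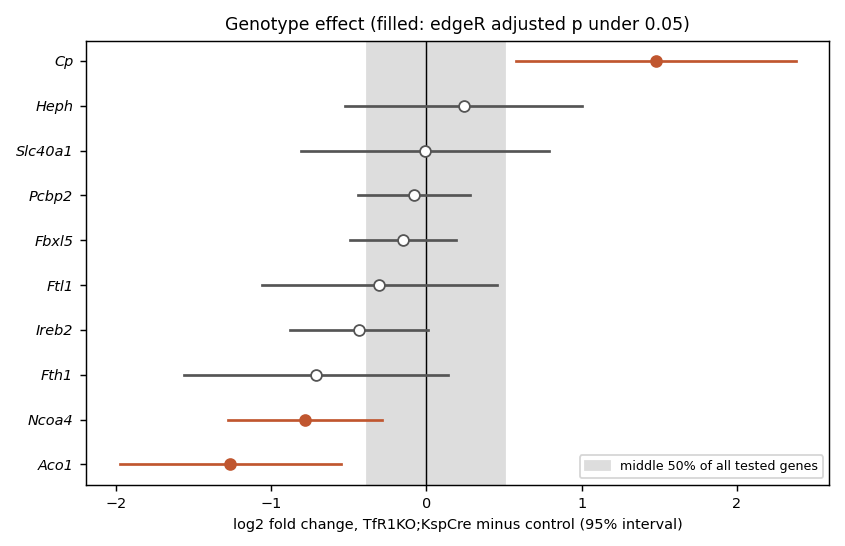
Log2 fold change (x axis, TfR1KO;KspCre minus control) of the 10 genes with 95% intervals from edgeR, filled orange where called, over a grey band for the middle 50% of all tested genes. Cp (1.48), Aco1 (-1.26) and Ncoa4 (-0.78) have intervals that exclude 0, and those of the other 7 genes include it.

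The fit under each alternative shows how firm the 3 calls are. Cp and Aco1 were called in 9 of 16 alternatives each and Ncoa4 in 6 of 16, while direction was kept in 16 of 16 for all 3. Adjusted p values reached 0.136 for Cp, 0.124 for Aco1 and 0.141 for Ncoa4 across them. DESeq2's Wald test, the tool that the study names, called Cp, Aco1, Ncoa4 and, at an adjusted p of 0.04999, Fth1, which is 4 of 10 members against 32.2% of all genes.

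**Figure D4:**
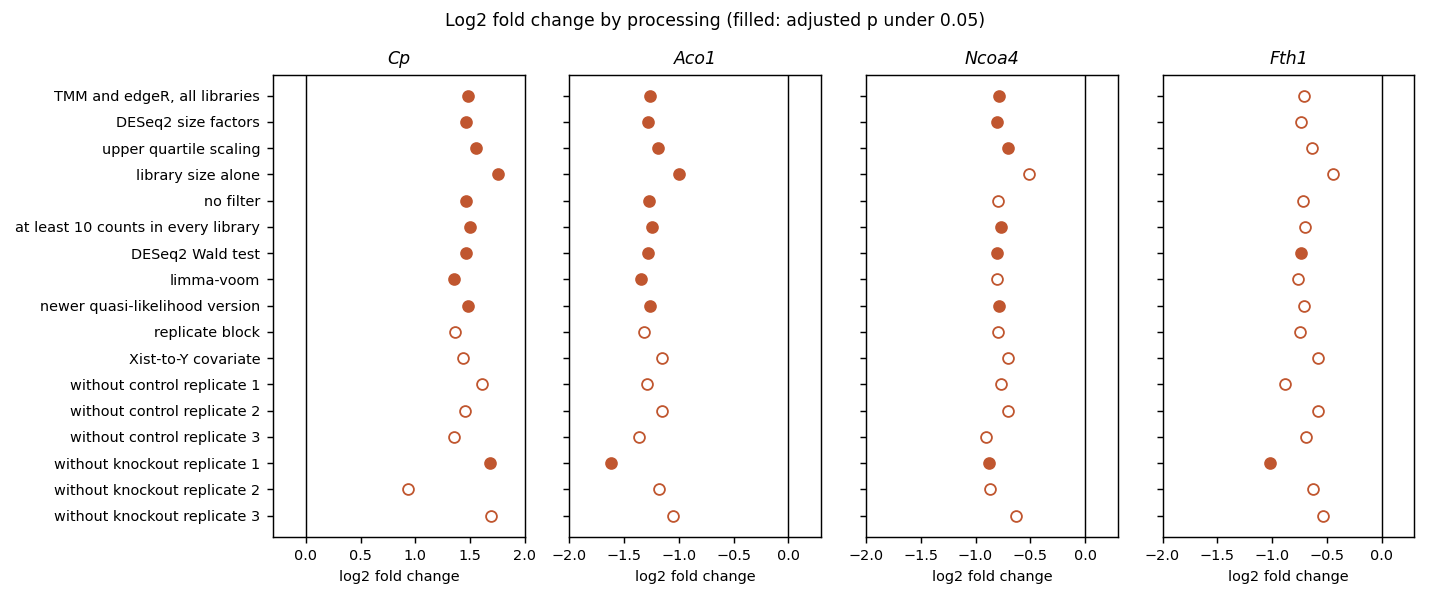
Log2 fold change (x axes, TfR1KO;KspCre minus control) of Cp, Aco1, Ncoa4 and Fth1 in the reported fit and in each of 16 alternatives (y axis), filled where the adjusted p was under 0.05. Cp stays positive and the other 3 genes negative throughout, the Cp value is smallest without knockout 2 (0.93), and Fth1 is filled with DESeq2's Wald test and without knockout 1.

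Summed markers of some kidney cell types also differed between the groups. The proximal tubule list (12 genes) summed to between 22297 and 56062 CPM in controls and between 3072 and 10225 CPM in knockouts, with 9 of 12 genes called lower and 0 higher, and knockout 1 was again the nearest to the controls. Kap alone gave 31293 CPM of the highest sum, that of control 2, and without it, a choice made after seeing the data, the sums were 16117 to 24769 CPM in controls and 2597 to 8686 CPM in knockouts. The thick ascending limb list (8 genes) summed to 5545 to 12110.4 CPM in controls and 984 to 7195 CPM in knockouts. There edgeR called 0 of 8, with 2 at an unadjusted p under 0.05, while DESeq2's Wald test called 2 lower and limma-voom 0. The log2 fold change was above 0 for 2 of these genes and below 0 for 6. Among all tested genes, edgeR called 10.6% higher and 6.64% lower, and 38.6% had an unadjusted p under 0.05. DESeq2's Wald test called 32.2% of all genes and limma-voom 13.4%. The macrophage list (11 genes) summed to 191 to 220.5 CPM and 612 to 2235 CPM, with 10 of 11 called higher. Lists for fibroblasts, injured tubules and T and B cells had 5 of 8, 6 of 8 and 3 of 8 genes called higher, with sums of 399 to 789, 1577 to 3977 and 6.41 to 10.03 CPM in controls and 1252 to 4842, 6087 to 9074 and 19.1 to 63.0 CPM in knockouts. The macrophage, injured tubule and T and B cell sums were highest in knockout 2, the library where Cp, Slc40a1 and Heph were highest. The fibroblast sum was highest in knockout 3. With limma-voom fewer genes were called higher, at 6 of 11 for macrophages, 4 of 8 for fibroblasts, 4 of 8 for injured tubules and 2 of 8 for T and B cells, and 9 of 12 were again called lower for the proximal tubule. None of the genes of these 6 lists was at 0 in any library. A liver list (6 genes) summed to 208 to 666 CPM in controls and 76.8 to 283 CPM in knockouts. In that list edgeR called 0 genes, 5 had an unadjusted p under 0.05, DESeq2's Wald test called 3 lower and limma-voom 0. The part of these shifts in the member values was not tested.

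**Figure D5:**
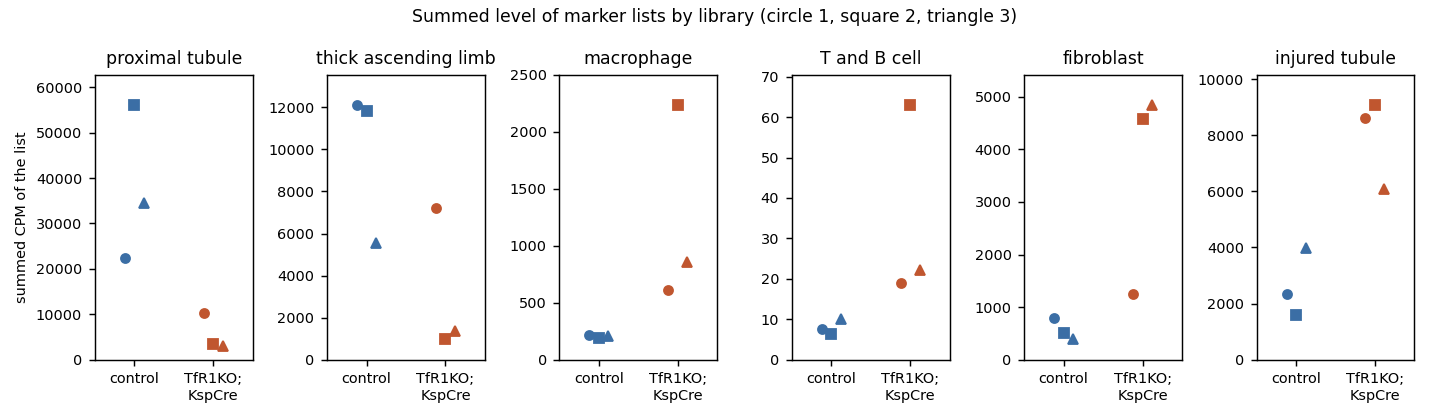
Summed CPM (y axes, each from 0) of marker lists for 6 cell types or states in each control (blue) and TfR1KO;KspCre (orange) library, with circles, squares and triangles for libraries 1, 2 and 3. The proximal tubule sums of the knockouts lie below those of the controls, the macrophage, T and B cell, fibroblast and injured tubule sums lie above them, and the groups overlap for the thick ascending limb.

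The rest of the pathway was read from a list of 21 other genes of ferritin turnover, iron delivery, export control, IRP2 degradation and IRE-bearing mRNAs. Of these, 17 were tested and edgeR called 0, where it called 17.2% of all genes. An unadjusted p under 0.05 was found for 4 of 17, against 38.6% of all genes, all 4 lower in knockouts and Tax1bp1 and Skp1a among them. DESeq2's Wald test called 4 of 17, against 32.2% of all genes, the newer quasi-likelihood version 1 (Tax1bp1) and limma-voom 0. The 17 genes had a median log2 fold change of -0.26, with 4 genes above 0 and 13 below. Hamp, Hamp2 and Hephl1 had at most 13 counts in a library and Ftmt was listed at 0, so these 4 were not tested. Hamp encodes hepcidin, the hormone that removes ferroportin from the cell surface.

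By role, the values of named genes were as follows. Among IRE-bearing mRNAs, Epas1, which encodes HIF2alpha, had a log2 fold change of 0.45 with an SE of 0.25. Tfrc itself had a log2 value of -0.11 with an SE of 0.62 (edgeR, adjusted p 0.911). In ferritin release, Tax1bp1, an adaptor that carries ferritin to the lysosome, had a log2 fold change of -0.58 and an adjusted p of 0.0550 by edgeR, and Atg7, which the autophagosome needs, had one of 0.14. In IRP2 degradation Skp1a, the adaptor that joins Fbxl5 to its ligase, had one of -0.62 and an adjusted p of 0.0712 by edgeR, whereas the cullin Cul1 had one of 0.02. Among regulators of export, the ferroportin ligase Rnf217 was at 0.49 and App at -0.20, and among chaperones Pcbp4 was at -0.44. None of the genes named here passed edgeR's test over all libraries.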

How the data were processed

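Poly-A RNA of whole kidney was sequenced as single-end reads. Per the labels and the study's methods, the authors used CASAVA 1.8.2, Trimmomatic, TopHat2 2.0.11 with the mm9 genome and HTSeq, kept uniquely mapped reads, and deposited raw counts per gene, in 1 table per group, without normalization. The annotation and strand setting were not given in the sources used here.

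Analysis used R 4.3.3 with edgeR 4.0.16, limma 3.58.1 and DESeq2 1.42.0. The function filterByExpr set which genes were tested (minimum count 10, minimum total 15), libraries scaled by TMM, and all 6 libraries fitted with the quasi-likelihood test in its default (legacy) version with no covariate. Adjustment of p-values followed Benjamini and Hochberg across the 15171 genes tested. The SE is the log2 fold change divided by the square root of F, and 95% intervals use the fit's degrees of freedom. DESeq2's Wald test ran on the same filtered genes. Fits were tested on simulated data. Pairs of replicates gave chi-square over degrees of freedom of 52.9 to 125, so none was a repeat deposit. The study calls them biological replicates and gives 3 mice for each of its models, without an animal for each library, and p-values measure the spread between these libraries. Total counts of 11501053 to 21001341 set the counting precision.

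Words of 100 bases of each member's longest coding transcript were looked up exactly in the genome on both strands. The members and lists were chosen with earlier results of these data known. All members are named, and of the pathway list Tfrc, any called gene and the largest rise and fall of each role, except 1 gene that is not reported here. Alternatives were other scalings, filters and tests, each library left out, the replicate number as a block, and the log2 Xist-to-Y ratio as a covariate.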

Additional observations from a re-analysis of the deposited data

How the results depend on the processing

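Over 16 alternatives to the reported fit, 126 of the 160 values of the members kept their direction and side of the threshold, and 8 changed direction. The number of members called (3) was 0 with the replicate block and 0 with the Xist-to-Y covariate, and 0 to 4 when each library was left out. The pathway list had 4 calls with DESeq2's Wald test, 1 with the newer quasi-likelihood version (Tax1bp1), and 0 to 4 when each library was left out. All genes called (2612) became 4882 with DESeq2's Wald test, 0 with the replicate block, 0 with the covariate, and 0 to 5332 when each library was left out, with 4221 to 7171 genes at an unadjusted p under 0.05 in these fits. Leave-one-out counts were 0 without any control, 2 without knockout 3, 73 without knockout 2 and 5332 without knockout 1, and the cause was not tested. Groups share replicate numbers, but libraries of the same number deviated together with correlations of only -0.13, 0.01 and 0.21, so no strong pairing by number was seen. Libraries of unlike number were not compared in this way, so pairing was not settled.

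Library size alone turned Slc40a1 to 0.25, Fbxl5 to 0.13, Pcbp2 to 0.19, Tfrc to 0.14 and App to 0.070, and the median of the members to 0.05, where all genes had a median of 0.29. Slc40a1 was 0.058 with upper quartile scaling and 0.0074 with at least 10 counts in every library, and ranged from -0.30 to 0.29 without each library. Tfrc was 0.15 with the covariate and ranged from -0.96 to 0.29, Cul1 from -0.10 to 0.10 and Heph from -0.16 to 0.47 without each library. Of the turned values without a library, Slc40a1 was 0.13 without control 3, Tfrc 0.17 without control 2 and 0.06 without knockout 2, and Cul1 -0.05 without control 1 and -0.03 without control 3. The Ncoa4 to Fth1 ratio (log2 difference -0.06) ranged from -0.22 to 0.16. Each member had at least 251 counts in every library.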

Other observations

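The order of the ferritin chains by level depended on the length used. Per 1000 bases of exon, Fth1 stood above Ftl1 in controls, at 3562 ± 744 and 2186 ± 571 CPM (SD, n = 3 each). Of the 100-base words of Ftl1, however, 60.8% also occur elsewhere, on chromosomes 4, 7, 11, 13 and 17, against 1.04% of those of Fth1. Per 1000 words found nowhere else the order turned, with Ftl1 at 8589 ± 2243 and Fth1 at 4064 ± 849 CPM. In knockouts the values were 6964 ± 811 and 2485 ± 826 CPM on that scale.

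On the scale of unique words, the other members of the controls followed in the order Ncoa4 (245 ± 37.1 CPM), Aco1 (108 ± 16.4), Pcbp2 (77.8 ± 8.01), Slc40a1 (24.5 ± 4.28), Fbxl5 (24.3 ± 2.46), Ireb2 (24.2 ± 4.07), Cp (23.6 ± 4.37) and Heph (5.35 ± 1.16). Per 1000 bases of exon Ncoa4, at 52.3 ± 7.94 CPM, was instead below Aco1 (88.2 ± 13.4) and Pcbp2 (75.1 ± 7.74). Slc40a1, Fbxl5, Ireb2 and Cp did not differ beyond their spread on that scale. Per 1000 bases of exon they fell into 2 pairs, with Slc40a1 at 23.8 ± 4.15 and Ireb2 at 23.8 ± 4.002 CPM, above Cp at 11.02 ± 2.04 and Fbxl5 at 10.3 ± 1.04 CPM. In knockouts, per 1000 unique words, Cp (65.8 ± 35.9 CPM) and Aco1 (45.0 ± 17.4) had moved next to each other, within their spread, and Ireb2 was at 17.9 ± 2.80. The words of the 7 members other than Fth1, Ftl1 and Ncoa4 were found nowhere else. For Cp, Fbxl5, Heph and Aco1, however, the exons of all transcripts together (9566, 9788, 7662 and 5197 bases) are longer than the 1 transcript searched (4564, 4236, 4743 and 4349 bases). The same holds for Ftl1 (1340 against 968 bases) and Ncoa4 (4452 against 4065 bases), so all these levels depend on the length used as well.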
